A study of Mus musculus with 12 samples.

Results

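The gene set described here holds 76 genes that were read in every unedited (WT) library of the mouse osteocyte-like line OCY454 and were close to unread in all libraries of its Piezo1-edited (KO) counterpart. A gene entered the set when its raw read counts summed over the 6 KO libraries to 10 or less and over the 6 WT libraries to more than 100. The rule was applied to 32245 gene rows, and 3 transgene rows and 4 genes (Alx1, Gpx7, Kif1a and Lama2) were left out by name, of which Alx1, Gpx7 and Lama2 would have met the thresholds. Because the counts of both lines chose the members, their difference between the lines is given as a description with no test. Their course over time in the WT line was tested gene by gene, because the rule did not use the difference between days. It did use the WT sum over the days, so the course is not fully independent of the choice. A gene with few reads at day 1, such as Klf12, Miat, Dkk1, Ube2ql1, Maob or Prr16, could pass the WT minimum only through later days on which it was high. Other members also depended on 1 high day. For example, Penk and Nat8l passed only with their day 14 reads, Gm47775 with those of day 28 and Perp with those of day 1. The rule favoured changes to or from such a day.

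OCY454 cells carry a temperature-sensitive large T antigen, grow at 33 °C and differentiate when they are moved to 37 °C. The WT groups were unedited cells after 1, 14 and 28 days at 37 °C, and the KO groups were cells from which CRISPR-Cas9 editing had removed Piezo1 exons 19 to 21, after the same days. Each of the 6 groups had 2 libraries of poly(A) RNA from bulk culture. The sources used here do not say how many edited clones the KO line represents or whether the 2 libraries of a group came from separate cultures, so the p-values below measure only the spread between these libraries. In bulk RNA, fewer cells that express a gene and less RNA per cell cannot be told apart.

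Osteocytes are the long-lived cells embedded in bone matrix, and they arise from osteoblasts. They sense mechanical load, and Piezo1 is a mechanically gated cation channel of their plasma membrane. Osteocytes also control bone formation through secreted proteins such as the Wnt inhibitor encoded by Dkk1. Many genes named below are best known from neurons, muscle, fat or liver rather than from bone.

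The 76 members together had 18499 reads in the WT libraries and 387 in the KO libraries, while the totals of the lines were close, at 75769907 reads for WT and 75544996 for KO. In CPM (read counts scaled to the library total), the WT libraries of day 1 gave 198 and 199, those of day 14 gave 278 and 285, and those of day 28 gave 275 and 256. In KO the same sum was 4.3 and 3.93 CPM on day 1, 5.24 and 4.11 on day 14, and 8.79 and 4.56 on day 28. All 76 members had reads in all 6 WT libraries, and no member had more than 5 reads in any KO library. The first KO library of day 28 stood highest within the KO line, with 108 reads spread over 49 members, against 49 to 70 reads over 32 to 38 members in the other KO libraries. The median member had 187.5 reads in WT and 5 in KO.

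**Figure D1:**
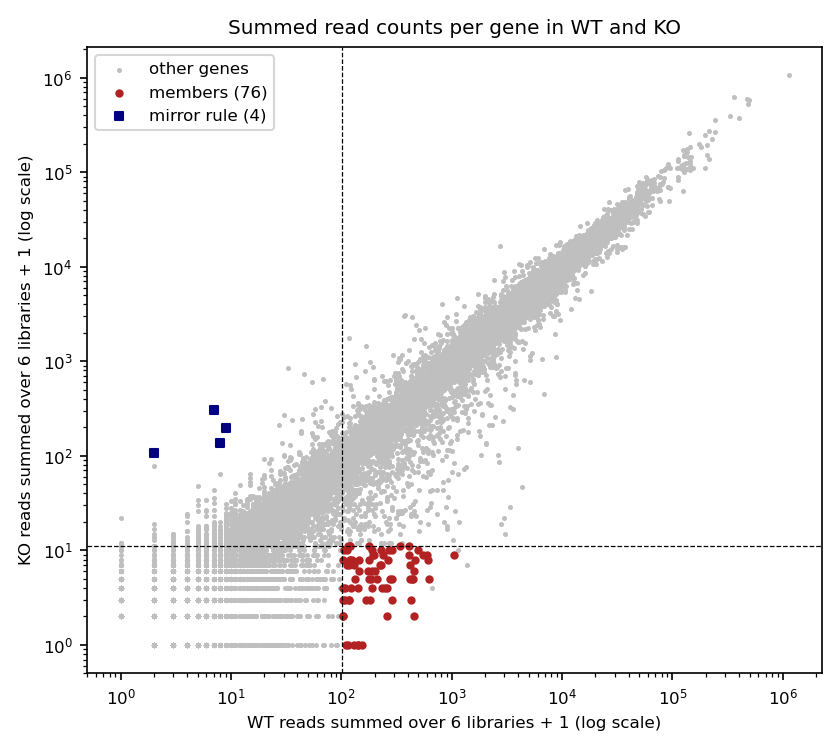
Each point is a gene, with its reads summed over the 6 WT libraries on the x axis and over the 6 KO libraries on the y axis, both with 1 added and on log scales. The 76 members (red) lie below the KO ceiling of 10 and right of the WT minimum of 100 (dashed lines), and the 4 genes of the mirrored rule are blue squares.

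Of the 12399 genes with more than 100 reads in WT, 0.637% had 10 or fewer in KO, which is 79 genes with the 3 left out by name. The rule was also turned around, to a WT sum of 10 or less and a KO sum above 100. It found 4 of 11913 genes (0.0336%), namely Hoxd3 (1 read in WT and 105 in KO), Hoxd4 (6 and 305), Hoxd3os1 (8 and 196) and 2610035F20Rik (7 and 135). Genes close to silent in 1 line were therefore more numerous in KO than in WT by these thresholds, with no test of that difference.

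The thresholds cut through a continuous distribution. Just inside the KO ceiling were Cacng7 (10 reads in KO, 409 in WT), Dnah7b (10 and 341) and Gatm (10 and 179), and just outside it were Rab39b (11 and 356), Galnt13 (11 and 279) and Gnai1 (11 and 270). At the WT minimum, Cap2 (102 reads in WT, 1 in KO), Fahd2a (102 and 2) and P4htm (102 and 7) were in, and Bmp6 (97 and 9), Phactr1 (96 and 3) and Npas3 (95 and 4) were out. A ceiling of 5 KO reads would give 41 members and one of 20 would give 134, so the number 76 is set by where the line was drawn.

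Within the set, 6 members had no read in any KO library, 35 had 1 to 5 and 35 had 6 to 10. The 6 members at 0 were Maob (monoamine oxidase B, which breaks down amines at the outer mitochondrial membrane), Pkia (an inhibitor peptide of protein kinase A), Prr16 (a proline-rich protein), Rps6ka6 (a member of the ribosomal S6 kinase family), Sytl5 (a synaptotagmin-like effector of Rab GTPases) and Irx2 (an Iroquois homeobox transcription factor). With 3 reads taken as the most that a count of 0 allows over the 6 KO libraries, their KO level was at most 0.0397 CPM, against 1.45 for Irx2 to 2.01 for Pkia in the pooled WT libraries. That made WT at least 36.6-fold higher for Irx2 and at least 50.5-fold higher for Pkia. This limit covers counting error only. Tmod2, which caps actin filaments at their pointed ends, had 1 KO read against 456 in WT. Tmem26 and Mboat2 were the only 2 members with a read in all 6 KO libraries, with 9 and 7 reads in all.

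Promoters of some members with 0 or 1 KO read are printed to show that they were not of a single type in base composition. They are the 250 bases before the annotated start for the 3 members without a KO read that the RefSeq table (build GRCm38.p6) holds, and for Tmod2. The latter was picked by hand from the 4 members with 1 KO read. Capitals mark each CG dinucleotide, the site of DNA methylation in mammals.
Rps6ka6 (chrX:111537960-111538209, minus strand): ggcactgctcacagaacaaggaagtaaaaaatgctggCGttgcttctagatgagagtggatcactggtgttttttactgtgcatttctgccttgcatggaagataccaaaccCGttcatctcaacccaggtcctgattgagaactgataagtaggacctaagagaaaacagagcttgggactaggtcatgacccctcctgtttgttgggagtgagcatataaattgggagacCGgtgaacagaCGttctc
Sytl5 (chrX:9885371-9885620, plus strand): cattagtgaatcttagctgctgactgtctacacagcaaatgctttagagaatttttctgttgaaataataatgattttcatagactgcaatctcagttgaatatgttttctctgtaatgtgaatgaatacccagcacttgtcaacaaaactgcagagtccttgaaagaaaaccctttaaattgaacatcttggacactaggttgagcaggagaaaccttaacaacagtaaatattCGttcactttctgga
Irx2 (chr13:72628570-72628819, plus strand): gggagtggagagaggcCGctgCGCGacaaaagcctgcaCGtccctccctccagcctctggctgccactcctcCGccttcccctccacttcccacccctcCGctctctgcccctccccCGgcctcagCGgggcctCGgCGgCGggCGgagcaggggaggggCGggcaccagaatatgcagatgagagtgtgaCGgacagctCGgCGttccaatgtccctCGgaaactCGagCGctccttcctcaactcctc
Tmod2 (chr9:75611326-75611575, minus strand): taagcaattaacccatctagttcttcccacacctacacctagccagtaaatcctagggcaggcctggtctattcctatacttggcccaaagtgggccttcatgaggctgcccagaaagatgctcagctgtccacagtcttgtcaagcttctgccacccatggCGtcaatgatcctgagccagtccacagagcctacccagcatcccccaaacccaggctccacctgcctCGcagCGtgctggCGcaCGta

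The Irx2 window held 19 CG, Tmod2 5, Rps6ka6 4 and Sytl5 1. Prkd1 and Cap2, which also had 1 KO read but are not printed, held 30 and 6. Among the 60 members with a promoter in the table, the number of CG per 250 bases ran from 1 to 52 with a median of 13.5. Of these 60, 37 (61.7%) held 10 or more CG, against 77% of the 9693 promoters of genes with more than 100 WT reads and 38.3% of all 27025 promoters in the table. At least 1 CG was present in 100% of the 60, in 99.4% of the promoters of genes read in WT and in 91.7% of all promoters. The letters TATAAA on either strand, the core of the TATA box, were found in 4 of the 60 (6.67%: Klf12, Dkk1, Rps6ka6 and Ica1), against 6.09% of the genes read in WT and 12.9% of all promoters. These matches describe the windows only, and no methylation was measured.

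As a check of the labels, Piezo1 itself had 1781 to 3369 reads in WT and 1211 to 4058 in KO libraries. The counts are per gene and cover exons outside the deletion, so they do not test it. Library totals ran from 8590132 to 15357433 reads. Osteoblast markers summed to 7870 to 22100 CPM in WT and 6460 to 37200 in KO, and osteocyte markers to 123 to 188 and 103 to 156. Fgf23 had 12 reads or fewer summed over all 12 libraries, and that limit is meant in the same way below. Within the osteocyte list, Ackr3 lay apart, at 15 to 95 reads in WT and 3 to 6 in KO. Reads of its other genes, the member Dkk1 among them, overlapped between the lines. Of the lists for other cell types, that for epithelium lay apart between the lines, at 2.86 to 5.45 CPM in WT and 0.427 to 1.51 in KO. Its defining markers Epcam, Krt18 and Cldn4 were at 12 reads or fewer, and Krt8 had 1 to 4 reads in WT and 0 to 4 in KO libraries. Cdh1, another gene of that list, had 36 to 63 reads in WT and 1 to 12 in KO. It was the only gene of the list whose reads did not overlap between the lines. The sums of the remaining lists overlapped between the lines: endothelium 2.08 to 5.94 and 1.32 to 2.45, adipocyte 20 to 30.3 and 20.3 to 27.3 with Plin1 at 12 reads or fewer and Pparg a member, chondrocyte 42.1 to 71.1 and 38.3 to 67.1. Within the endothelium list, Kdr had 8 to 64 reads in WT and 4 to 6 in KO, while reads of the other genes overlapped. Skeletal muscle markers stood at 5.18 to 12.8 CPM in WT and 7.17 to 9.99 in KO, blood markers at 8.5 to 13.7 and 6.62 to 10.1, and markers of neurons and glia at 9.99 to 39 and 9.17 to 41.9, with Rbfox3, Snap25 and Sox10 at 12 reads or fewer. The part of any of these in the members' low KO counts was not tested.

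The members were weakly expressed in WT. Their mean WT level ran from 1.27 to 14 CPM with a median of 2.49. Per kilobase of exonic length (GENCODE vM21), the scale on which genes can be compared, the members ran from 0.142 CPM per kb for Adgrl3 to 4.22 for Ccdc149 with a median of 0.612. The median of the 12285 genes with more than 100 WT reads and a length was 6.93 CPM per kb. No member lay above that median, and 75 of the 76 lay in the lowest 25%, the exception being Ccdc149 at the 35.8th percentile. After Ccdc149 the highest levels per kb were those of Adm2 (2.37), the noncoding Gm47775 (2.29), Tceal1 (2.14), Pparg (2.07), Cacng7 (2.07) and Plek2 (1.96). A rule that asks for few KO reads favours genes with few reads in all, so this low level is tied to how the members were chosen.

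**Figure D2:**
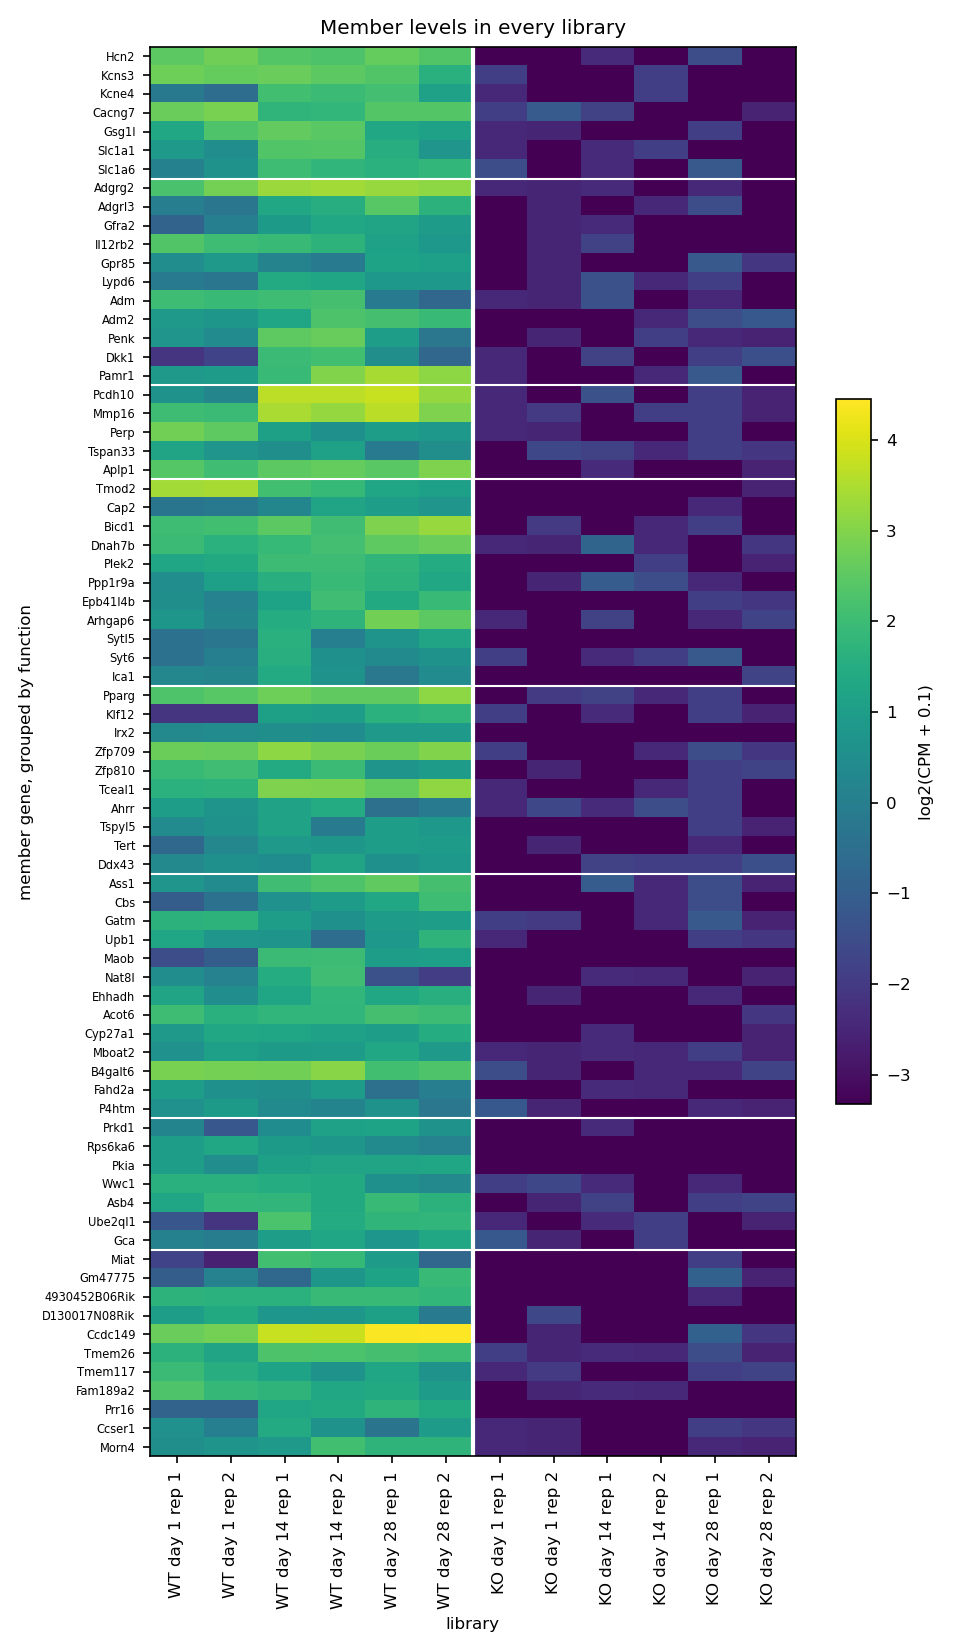
Colour gives log2(CPM + 0.1) of 75 of the 76 members (rows, grouped by function and separated by white lines) in each of the 12 libraries (columns, WT left of the thick white line). The 6 WT columns are above the 6 KO columns in nearly every row, as the rule requires, and the WT columns change with the day in many rows.

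Over time in the WT line, more members were called higher than lower from day 1 to day 14. The counts below describe the chosen genes. A weak gene that is high on any of the days passes the WT minimum more readily, and the part of this in the members' excess over all genes was not tested. That excess is therefore no evidence of a common course. From day 1 to day 14, 31 members were higher at an adjusted p below 0.05 in edgeR's quasi-likelihood test (40.8% of 76, against 18.2% of the 13772 genes tested) and 3 were lower (3.95% against 15.9%). Their median log2 fold change was 0.68, against 0.00 over all genes tested. From day 14 to day 28, 6 members were higher (7.89% against 17.9%) and 14 were lower (18.4% against 16.8%, close to all genes), with a median of -0.07 against -0.01. DESeq2 called 1 higher and 5 lower in that comparison. Over the whole course, from day 1 to day 28, 31 were higher (40.8% against 24.6%) and 12 were lower (15.8% against 23.4%), with a median of 0.49 against 0.00. The count of 31 at day 14 fell to 19 without the second day 14 library and to 20 without the second day 1 library. DESeq2 called 17 members higher, beside 14% of all the genes it tested. Fewer libraries or another test can lower the calls of all genes too, so these falls are not read as particular to the members. From day 14 to day 28, 3 members were higher without the first day 14 library, and lower ones numbered 9 without that library and 8 without either second library. Without the first day 1 library, 20 members were higher at day 28 than at day 1, the count that DESeq2 gave too.

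**Figure D3:**
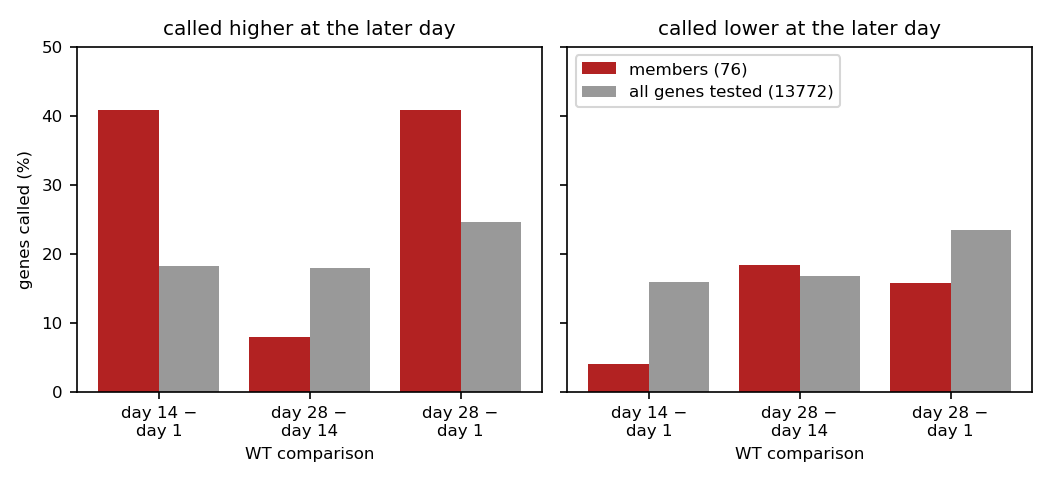
Bars give the percentage of genes called higher (left) or lower (right) at the later day in the 3 WT comparisons, for the 76 members (red) and all 13772 genes tested (grey). The members exceed all genes for higher calls from day 1 to day 14 (40.8% against 18.2%) and from day 1 to day 28 (40.8% against 24.6%), and lie below them for lower calls from day 1 to day 14 (3.95% against 15.9%).

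In all, 52 members (68.4%) were called in at least 1 of the 3 comparisons, close to the 62.9% of all genes tested, and 24 in none. The most common course with any call, in 18 members, was a rise by day 14 that was still called above day 1 at day 28. These 18 had no call between day 14 and day 28. Arhgap6, Ccdc149 and Pamr1 were higher in all 3 comparisons, and Tmod2 was lower in all 3. Dkk1, Maob and Miat rose by day 14, fell by day 28 and were still called above day 1 (Miat with an adjusted p of 0.143 without the first day 28 library), and Penk and Slc1a1 rose and fell back to a level not called different from day 1. A transgene row for a YAP-EGFP fusion also changed over these WT libraries, with 2 and 3 reads on day 1, 82 and 45 on day 14, and 224 and 75 on day 28, against 0 to 7 in KO. Its part in the members' time course was not tested.

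The 2 libraries of a WT day differed by over 1.5-fold for 15 members at day 1, 18 at day 14 and 21 at day 28. The first day 1 library was higher than the second for 37 members and lower for 39, and the same split held at day 14. At day 28, the first library was higher for 45 and lower for 31, and of the 21 members over 1.5-fold apart, 14 were higher in the first. Dkk1, Penk, Miat and Kcns3 were among the members that were higher in the first day 28 library, which was also the one with more reads of the YAP-EGFP row. The part of that row in these differences was not tested.

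**Figure D4:**
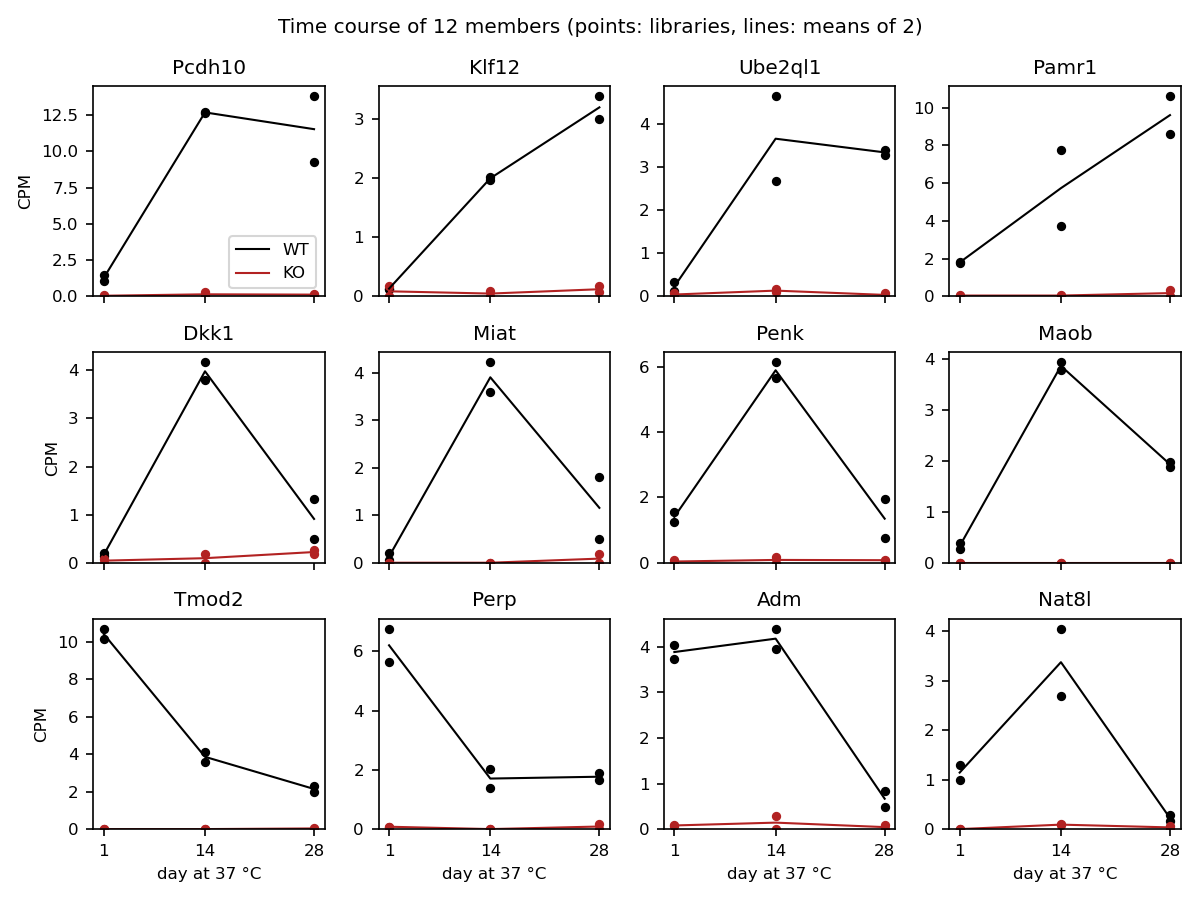
CPM (y axis, a separate linear scale from 0 in each panel) of 12 members at days 1, 14 and 28 (x axis) in WT (black) and KO (red), with points for the 2 libraries and lines through their means. The top row rises and stays up, Dkk1, Miat, Penk and Maob in the middle row peak at day 14, and Tmod2, Perp, Adm and Nat8l in the bottom row end below day 1.

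Among the 12 receptors and secreted signals, 9 rose (75%) and none fell from day 1 to day 14, against 18.2% and 15.9% of all genes tested. By day 28, 7 were above day 1 (58.3% against 24.6%) and 2 below (16.7% against 23.4%). DESeq2 called 4 higher in each of these comparisons, and leaving out 1 library gave 4 to 7 higher at day 14 and 3 to 6 at day 28. Dkk1, the secreted Wnt antagonist and an osteocyte marker, had 0.13 and 0.197 CPM on day 1, 3.79 and 4.17 on day 14, and 1.33 and 0.495 on day 28. Both day 14 libraries were above all others, and the KO libraries held 0 to 4 reads each. The change was 4.52 ± 0.56 on the log2 scale to day 14 (SE, 2 libraries per group, edgeR adjusted p = 2.44e-06) and -2.07 ± 0.42 from there to day 28 (adjusted p = 0.000656). The rise from day 1 to day 28, 2.45 ± 0.71 (adjusted p = 0.00702), was lost without the first day 28 library (adjusted p = 0.191). Penk, the precursor of the enkephalin opioid peptides, followed a like course, with 1.56 and 1.25 CPM on day 1, 5.65 and 6.13 on day 14, and 1.95 and 0.743 on day 28. It rose by 2.06 ± 0.35 to day 14 (adjusted p = 0.00012) and fell by 2.08 ± 0.36 after it (adjusted p = 0.000163). Dkk1 and Penk passed the WT minimum only with their day 14 reads, so the rule favoured such a peak.

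The adrenomedullin peptides, vasoactive ligands of a shared receptor family, parted. Adm, adrenomedullin itself, had 4.03 and 3.74 CPM on day 1, 3.96 and 4.40 on day 14, and 0.837 and 0.495 on day 28. Both day 28 libraries were below all earlier ones, and the change from day 14 was -2.60 ± 0.41 (edgeR adjusted p = 5e-05). Adm2, with 1.69 and 1.64 CPM on day 1, 2.28 and 4.74 on day 14, and 4.40 and 3.71 on day 28, rose by 1.28 ± 0.34 over the whole course (adjusted p = 0.00381). The difference between the 2 genes' courses was not tested.

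Pamr1, a secreted protein with a peptidase domain, climbed through the course, with 1.75 and 1.84 CPM on day 1, 3.71 and 7.75 on day 14, and 10.6 and 8.59 on day 28. Its rise from day 1 to day 28 was 2.42 ± 0.33 (edgeR adjusted p = 4.88e-06), while that from day 14 to day 28, 0.79 with an adjusted p of 0.0459, was lost without the first day 14 library (adjusted p = 0.531). Adgrg2, an adhesion-type G protein-coupled receptor, had 4.55 and 7.02 CPM on day 1, 9.53 and 10.3 on day 14, and 9.42 and 8.59 on day 28. All 4 later libraries were above both of day 1, by 0.77 ± 0.22 at day 14 (adjusted p = 0.0104, or 0.169 without the first day 1 library). Adgrl3, a latrophilin of the same receptor class, rose further, from 0.91 and 0.722 CPM at day 1 to 2.44 and 2.78 at day 14 and 5.23 and 3.06 at day 28. Its change over the course was 2.34 ± 0.41 (adjusted p = 7.69e-05).

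The other 4 receptors and receptor-associated proteins differed in course. Gfra2, a co-receptor for the neurotrophic factor neurturin, rose by 1.56 ± 0.44 from day 1 to day 28 (edgeR adjusted p = 0.0066, or 0.106 without the first day 1 library). Lypd6, a membrane-anchored modulator of Wnt signalling, rose by 1.65 ± 0.42 to day 14 (adjusted p = 0.00449, or 0.0551 without the first day 14 library). Il12rb2, a subunit of the interleukin 12 receptor, fell from 5.01 and 4.0 CPM at day 1 to 3.71 and 3.12 at day 14 and 2.09 and 1.65 at day 28, a change of -1.25 ± 0.32 (adjusted p = 0.00277). Gpr85, an orphan receptor, had 1.30 and 1.71 CPM on day 1, 1.01 and 0.81 on day 14, and 2.16 and 1.98 on day 28. Its rise after day 14 was 1.16 ± 0.43 with an adjusted p of 0.041, and 0.176 without the second day 14 library.

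Among the 7 ion channels and transporters, 3 rose (42.9%, against 18.2% of all genes tested) and 1 fell (14.3% against 15.9%) by day 14, and 2 fell from day 14 to day 28 (28.6% against 16.8%). Leaving out 1 library gave 2 to 4 higher and 0 to 1 lower by day 14, and 1 to 3 lower after it, where DESeq2 called 1. Kcne4, an accessory subunit of potassium channels, had 0.78 and 0.591 CPM on day 1, 4.21 and 3.82 on day 14, and 4.26 and 2.06 on day 28. Its rise to day 14 was 2.54 ± 0.44 (edgeR adjusted p = 0.000139). The glutamate transporters Slc1a1 and Slc1a6 also rose, by 1.71 ± 0.33 (adjusted p = 0.000476) and 1.60 ± 0.42 (adjusted p = 0.00497, or 0.0699 without the first day 1 library). Slc1a1 went from 1.75 and 1.31 CPM at day 1 to 4.97 and 5.09 at day 14 and to 2.79 and 1.57 at day 28. That last step was -1.18 ± 0.32 (adjusted p = 0.00735, or 0.0853 without the second day 28 library). Slc1a6 stayed up, at 3.0 and 3.47 CPM at day 28 from 0.975 and 1.44 at day 1.

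Cacng7, a transmembrane regulator of calcium channels and AMPA receptors, had 6.24 and 7.22 CPM on day 1, 3.29 and 3.47 on day 14, and 5.09 and 5.04 on day 28. Its change to day 14 was -1.0 ± 0.26 (edgeR adjusted p = 0.00529, or 0.0637 without the second day 1 library). Gsg1l, another AMPA receptor accessory protein, fell after day 14, from 5.90 and 5.44 CPM to 2.37 and 2.06, by -1.35 ± 0.34 (adjusted p = 0.00431). Hcn2, a hyperpolarisation-activated cation channel known from pacemaker cells, and Kcns3, a modulatory potassium channel subunit, were not called at any step. Hcn2 ranged from 4.74 to 6.63 CPM over the 6 WT libraries and Kcns3 from 2.97 to 6.5.

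The 5 members of the adhesion and cell surface group included Pcdh10, the member with the lowest adjusted p from day 1 to day 14. This protocadherin had 1.5 and 1.05 CPM on day 1, 12.7 and 12.7 on day 14, and 13.8 and 9.25 on day 28, while its KO libraries held 0 to 3 reads each. All 4 later libraries were above both of day 1, by 3.31 ± 0.30 at day 14 (edgeR adjusted p = 3.28e-08) and 3.18 ± 0.29 at day 28 (adjusted p = 1.87e-08). Mmp16, a membrane-bound matrix metalloproteinase, rose from 4.03 and 3.81 CPM to 10.9 and 9.26 at day 14 and stood at 12.5 and 7.68 at day 28. Its change was 1.37 ± 0.25 to day 14 (adjusted p = 0.000201). Perp, a tetraspan protein of desmosomes and a p53 target, went the other way, from 6.76 and 5.64 CPM at day 1 to 2.02 and 1.39 at day 14 and 1.88 and 1.65 at day 28. It fell by 1.82 ± 0.32 to day 14 (adjusted p = 0.000157) and had no call from day 14 to day 28. Perp passed the WT minimum only with its day 1 reads, so the rule favoured such a fall. Aplp1, a relative of the amyloid precursor protein, ranged from 4.07 to 7.59 CPM and Tspan33, a tetraspanin, from 0.837 to 2.21, with no call.

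The cytoskeleton and vesicle group had 11 members, of which 5 were called higher (45.5% against 18.2% of all genes tested) and 1 lower (9.09% against 15.9%) by day 14. The 5 higher calls became 1 to 2 when 1 library was left out and 0 with DESeq2. Tmod2 had the decline with the lowest adjusted p of the set, with 10.1 and 10.7 CPM on day 1, 4.13 and 3.59 on day 14, and 2.30 and 1.98 on day 28. Its libraries did not overlap between any 2 days, and the change was -1.42 ± 0.23 to day 14 (edgeR adjusted p = 8.68e-05) and -2.27 ± 0.24 to day 28 (adjusted p = 3.05e-07). The step from day 14 to day 28 alone, -0.85 with an adjusted p of 0.0266, was lost without the first day 14 library (adjusted p = 0.174). Arhgap6, a GTPase-activating protein, rose from 1.62 and 1.05 CPM at day 1 to 2.70 and 3.24 at day 14 and 6.84 and 5.53 at day 28, by 2.20 ± 0.32 in all (adjusted p = 9.81e-06). Its later step, 1.08 ± 0.31 (adjusted p = 0.00921), was lost without the first day 14 library (adjusted p = 0.102).

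Bicd1, an adaptor that links dynein to its cargo, had 4.03 and 4.20 CPM on day 1, 5.56 and 4.05 on day 14, and 7.68 and 9.41 on day 28. It rose by 1.05 ± 0.25 over the course (edgeR adjusted p = 0.00172), with both day 28 libraries above the 4 earlier ones. Sytl5, at 0 reads in KO, had 0.65 and 0.722 CPM on day 1, 2.95 and 0.926 on day 14, and 1.53 and 2.23 on day 28. Its rise to day 14, 1.56 ± 0.51 (adjusted p = 0.025), rested on the first day 14 library, without which the adjusted p was 0.714. Epb41l4b, a band 4.1 protein of the membrane skeleton, rose by 1.37 ± 0.38 to day 28 (adjusted p = 0.00596, or 0.0712 without the second day 1 library). Ppp1r9a (neurabin, an actin-binding phosphatase anchor) and Syt6 (a synaptotagmin) were called higher at day 14, and Cap2 (a cyclase-associated actin regulator) and Dnah7b (a ciliary dynein heavy chain) at day 28. Each of these 4 calls was lost when a single library was left out: the adjusted p was 0.239 for Ppp1r9a and 0.142 for Cap2 without the first day 1 library, 0.448 for Syt6 without the first day 14 library, and 0.165 for Dnah7b without the second day 1 library. Plek2 (a pleckstrin relative) and Ica1 (a vesicle-associated islet autoantigen) had no call.

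Of the 10 members in transcription, telomere maintenance and RNA, 2 rose by day 14 (20%, against 18.2% of all genes tested). At day 28, 3 stood above day 1 (30% against 24.6%) and 2 below (20% against 23.4%), shares close to those of all genes, and DESeq2 called 2 and 0. Klf12, a Krüppel-like transcriptional repressor, had 0.13 and 0.131 CPM on day 1, 2.02 and 1.97 on day 14, and 3.0 and 3.38 on day 28. Its change of 4.51 ± 0.54 from day 1 to day 28 (edgeR adjusted p = 7.85e-07) was the highest of the set in that comparison, from 2 reads in each day 1 library. Klf12 thus passed the WT minimum only through the later days, so the rule favoured such a rise. Tceal1, an X-linked relative of a transcription elongation factor, rose from 2.99 and 3.15 CPM to 7.67 and 7.41 at day 14 and 6.0 and 8.75 at day 28, by 1.30 ± 0.27 to day 14 (adjusted p = 0.000847). Tert, the catalytic subunit of telomerase, had 0.52 and 1.12 CPM at day 1 and 1.88 and 1.82 at day 28. Its change of 1.17 ± 0.43 had an adjusted p of 0.0314, and of 0.286 without the first day 1 library.

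Pparg, the nuclear receptor that drives fat cell differentiation, had no call over time, with 4.81 and 5.32 CPM on day 1, 6.49 and 5.79 on day 14, and 5.72 and 8.59 on day 28. Its largest step, 0.49 ± 0.25 from day 1 to day 28, had an edgeR adjusted p of 0.116, and the KO libraries held 0 to 2 reads each. Irx2 also had no call, at 1.17 to 1.75 CPM in the 6 WT libraries. The zinc finger gene Zfp709 ranged from 6.17 to 8.6 CPM with no call. Zfp810, another zinc finger gene, fell by 1.20 ± 0.31 to day 28 (adjusted p = 0.0034, DESeq2 adjusted p = 0.0542). Ahrr, the repressor of the aryl hydrocarbon receptor, had 2.11 and 2.66 CPM at day 14 and 0.628 and 0.826 at day 28, a change of -1.70 ± 0.45 (adjusted p = 0.00571, DESeq2 adjusted p = 0.0504). Tspyl5 (a nucleosome assembly protein relative) and Ddx43 (an RNA helicase) had no call.

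Of the 13 metabolic enzymes, 4 were higher (30.8% against 18.2% of all genes tested) and none lower (against 15.9%) at day 14 than at day 1. At day 28, 3 were higher and 3 lower than at day 1 (23.1% each), close to the 24.6% and 23.4% of all genes. DESeq2 called 2 higher at day 14 and 1 lower at day 28, and leaving out 1 library gave 2 to 3 and 1 to 2. The rising ones included enzymes of amino acid and amine metabolism. Maob had 0.26 and 0.394 CPM on day 1, 3.79 and 3.93 on day 14, and 1.88 and 1.98 on day 28, with no read in KO. The 3 days did not overlap, and the rise to day 14 was 3.52 ± 0.43 (edgeR adjusted p = 5.83e-06), while the fall after it, -1.0 ± 0.33 (adjusted p = 0.025), was lost without the first day 14 library (adjusted p = 0.104). Ass1, argininosuccinate synthase of the urea cycle and arginine synthesis, rose from 1.56 and 1.25 CPM to 4.05 and 4.86 at day 14 and 5.72 and 4.38 at day 28, by 1.85 ± 0.32 over the course (adjusted p = 8.56e-05). Cbs, cystathionine beta-synthase of the route from homocysteine to cysteine, rose from 0.39 and 0.656 CPM to 1.43 and 1.85 at day 14 and 2.44 and 3.96 at day 28, by 2.58 ± 0.47 (adjusted p = 0.000148).

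Nat8l, the enzyme that makes N-acetylaspartate, had 1.30 and 0.984 CPM on day 1, 2.70 and 4.05 on day 14, and 0.279 and 0.165 on day 28. Its fall after day 14, -3.81 ± 0.52 (edgeR adjusted p = 1.21e-05), was the largest fall of the set in any comparison. Nat8l passed the WT minimum only with its day 14 reads (32 and 35 of 108), so the rule favoured such a fall. B4galt6, a galactosyltransferase of lactosylceramide synthesis, kept between 6.83 and 8.21 CPM to day 14 and stood at 4.19 and 4.87 at day 28. The change of -0.67 ± 0.22 from day 1 had an adjusted p of 0.0174, and of 0.0906 without the first day 1 library. Fahd2a, a fumarylacetoacetate hydrolase domain protein, was called lower at day 28 than at day 1 (-1.10 ± 0.43, adjusted p = 0.0415, or 0.244 without the first day 1 library).

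The other 7 enzymes had no call at any step. They were Gatm (the first enzyme of creatine synthesis, 1.39 to 3.15 CPM in WT), Upb1 (pyrimidine breakdown, 0.579 to 3.22), Ehhadh (peroxisomal fatty acid oxidation, 1.31 to 3.47) and Acot6 (an acyl-CoA thioesterase, 2.95 to 4.40). The rest were Cyp27a1 (the sterol 27-hydroxylase of bile acid synthesis), Mboat2 (a lysophospholipid acyltransferase) and P4htm (a transmembrane prolyl hydroxylase), at 0.743 to 2.72 CPM. Several enzymes best known from the liver were thus read in these WT cells at a low level that was not called different between days.

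Of the 7 members in kinase, ubiquitin and calcium signalling, 2 rose by day 14 (28.6%, against 18.2% of all genes tested). At day 28, 3 were above day 1 (42.9% against 24.6%) and 2 below (28.6% against 23.4%). DESeq2 called 1 higher in each comparison and 0 lower at day 28, and leaving out 1 library gave 1 to 2 higher in each and 1 lower. Ube2ql1, a relative of ubiquitin-conjugating enzymes, had 0.325 and 0.131 CPM on day 1, 4.64 and 2.66 on day 14, and 3.28 and 3.38 on day 28, and its change was 3.97 ± 0.50 to day 14 (edgeR adjusted p = 3.13e-06). Wwc1 (KIBRA, an upstream regulator of the Hippo pathway) fell by 1.19 from day 1 to day 28 (adjusted p = 0.00661, DESeq2 adjusted p = 0.0852), from 2.93 and 2.95 CPM to 1.40 and 1.16. Rps6ka6 had 1.89 and 2.36 CPM on day 1, 1.77 and 1.62 on day 14, and 1.19 and 0.991 on day 28. Its change of -0.95 had an adjusted p of 0.0458 and of 0.231 without the second day 1 library. The protein kinase D gene Prkd1 and Gca (the calcium-binding grancalcin) were called higher at day 28 than at day 1. The adjusted p was 0.263 for Prkd1 without the second day 1 library and 0.238 for Gca without the second day 28 library. Pkia, at 1.31 to 2.31 CPM, and Asb4, a ubiquitin ligase subunit, had no call.

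The last group, of 11 noncoding or little-characterised genes, held the member with the highest WT level. By day 14, 4 of them rose (36.4%, against 18.2% of all genes tested) and none fell (against 15.9%). At day 28, 5 were above day 1 (45.5% against 24.6%) and 1 below (9.09% against 23.4%), and leaving out 1 library gave 3 to 5 and 0 to 3. Ccdc149, a coiled-coil protein, had 6.24 and 7.02 CPM on day 1, 13.9 and 14.1 on day 14, and 21.2 and 21.7 on day 28, and its 8 KO reads were spread over 3 libraries, 5 of them in the first of day 28. Its libraries did not overlap between days, and the steps were 1.08 ± 0.18 to day 14 (edgeR adjusted p = 8.19e-05) and 0.62 ± 0.16 from there to day 28 (adjusted p = 0.00498). Miat, a long noncoding RNA known from heart and retina, had 0.195 and 0.0656 CPM on day 1, 4.21 and 3.59 on day 14, and 1.81 and 0.495 on day 28. Its rise of 4.81 ± 0.65 to day 14 (adjusted p = 1.26e-05) was the highest of the set in that comparison. With 3 and 1 reads on day 1, Miat passed the WT minimum only through the later days, so the rule favoured such a rise. Its fall after day 14, -1.71 ± 0.45 (adjusted p = 0.00619), was lost without the second day 28 library (adjusted p = 0.0709). Prr16, at 0 reads in KO, rose from 0.455 and 0.459 CPM to 2.28 and 2.55 at day 14 and 3.21 and 2.56 at day 28, by 2.64 ± 0.42 (adjusted p = 4.57e-05). Gm47775, a long intergenic RNA, had 0.39 and 0.984 CPM on day 1, 0.506 and 1.62 on day 14, and 2.16 and 3.71 on day 28, a change of 2.07 ± 0.51 from day 1 (adjusted p = 0.00259, or 0.0599 without the first day 1 library). Prr16 and Gm47775 passed the WT minimum only with their day 28 reads, so the rule favoured their rise too. Morn4 was called higher and Fam189a2 lower at day 28 than at day 1, each lost without the first day 1 library (adjusted p = 0.0863 and 0.171), and Tmem26 higher at day 14, lost without the second day 1 library (0.218). Tmem117, Ccser1, 4930452B06Rik and D130017N08Rik had no call.

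The members were spread over the genome. All 76 symbols matched a gene of the GENCODE vM21 annotation, 73 of them protein coding and 3 long intergenic RNAs (Miat, Gm47775 and D130017N08Rik). They lay on all autosomes and the X chromosome, and no 2 members were neighbours among the genes with more than 100 WT reads. That check does not show grouping over longer distances. On chromosome 13, which held 5 members, Ube2ql1 started at base 69702832, Irx2 at 72628820, Tert at 73626911 and Ahrr at 74211118. On chromosome 6, Ppp1r9a ended at base 5165661 and Asb4 started at 5383386. Such grouping was not tested. Chromosome 6 held 9 of its 604 such genes (1.49%) and the X chromosome 6 of 373 (1.61%: Adgrg2, Tceal1, Arhgap6, Maob, Rps6ka6 and Sytl5), against 1 of 1038 (0.0963%) on chromosome 11. Maob, Rps6ka6 and Sytl5 are 3 of the 6 members with no KO read. The share per chromosome was not tested.

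The 151 genes next to a member, among those with more than 100 WT reads, differed little from other genes in their median ratio between the lines. That median, of the log2 of KO over WT mean CPM (with 0.1 added to each), was 0.04, against 0.01 for other genes, and 13 of them (8.61%) were more than 2-fold lower in KO, against 5.69% of other genes. None (0%) was more than 2-fold higher, against 1.15%. The lowest neighbours were Lgi2, 62.0 kb from Ccdc149 (-6.32), Prkg1, 14.8 kb from Dkk1 (-3.81), Hdx, 32.0 kb from Rps6ka6 (-3.66), and Srpx, 43.4 kb from Sytl5 (-3.12).

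Exons of 13 members overlap a gene on the other strand, and whether the counting used the strand is not given in the sources used here. Il12rb2 overlaps Serbp1, which had 1590 CPM in WT and 1600 in KO, and Il12rb2 had 3 KO reads beside it. Arhgap6 overlaps Hccs, with 49.5 CPM in WT and 57.4 in KO, and had 7 KO reads. Slc1a1 overlaps 4430402I18Rik, with 170 reads in WT and 89 in KO, and Syt6 overlaps Atg4a-ps, with 106 and 105. Gca overlaps Kcnh7 (22 and 3 reads), and the genes overlapping the other 8 members had 5 reads or fewer in either line. Arhgap6 and Miat also share exon bases with a gene on their own strand.

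Relatives of the members are taken here as genes with the same symbol stem. Of 232 tested, 61 were higher and 54 lower in KO at day 1 (26.3% and 23.3%, against 19.5% and 20.8% of all genes tested), 55 and 71 at day 14 (23.7% and 30.6%, against 23.8% and 25.9%), and 53 and 61 at day 28 (22.8% and 26.3%, against 19.8% and 21.2%). Their median log2 fold change was -0.03, -0.05 and -0.01 on the 3 days, and at day 28 the higher count was 35 when libraries were scaled by their totals alone. Beside the silent Rps6ka6, the relatives Rps6ka1 to Rps6ka5 were read in both lines, for example Rps6ka3 at 118 CPM in WT and 114 in KO (means over 6 libraries). Beside Tmod2, the broadly expressed Tmod3 had 160 CPM in WT and 166 in KO, and Tmod1 had 6.40 and 13.5, higher in KO at day 1 by 1.43 ± 0.17 (edgeR adjusted p = 1.14e-06) and at day 14 by 1.65 ± 0.18 (adjusted p = 2.07e-07). Beside Irx2, Irx3 had 182 and 188 CPM and Irx5 37.4 and 39.0, while Irx1 had 40.3 and 24.7. Aplp2, at 594 and 598 CPM, and Cap1, at 325 and 308, were likewise read in both lines beside Aplp1 and Cap2.

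Among the 232 tested relatives, 27, 30 and 28 were called more than 2-fold lower in KO at days 1, 14 and 28. Those called more than 2-fold higher numbered 5, 8 and 3. The share of all genes called beyond 2-fold was not counted, so this skew is not read as a trait of the relatives. By mean CPM over all days, 5.69% of the non-member genes with more than 100 WT reads were more than 2-fold lower in KO and 1.15% higher. Arhgap24 had 8.18 CPM in WT and 0.243 in KO beside Arhgap6, lower at day 1 by -4.77 ± 0.38 (edgeR adjusted p = 2.29e-09). Gfra1, the co-receptor for GDNF, had 4.36 CPM in WT and 0.189 in KO beside Gfra2, and was lower at day 28 by -5.56 ± 0.46 (edgeR adjusted p = 5.52e-09). Klf15, a regulator of metabolic genes, had 89.9 and 5.66 CPM beside Klf12, lower at day 14 by -7.89 ± 0.29 (adjusted p = 7.77e-15). The relatives named here were chosen after their values were seen.

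**Figure D5:**
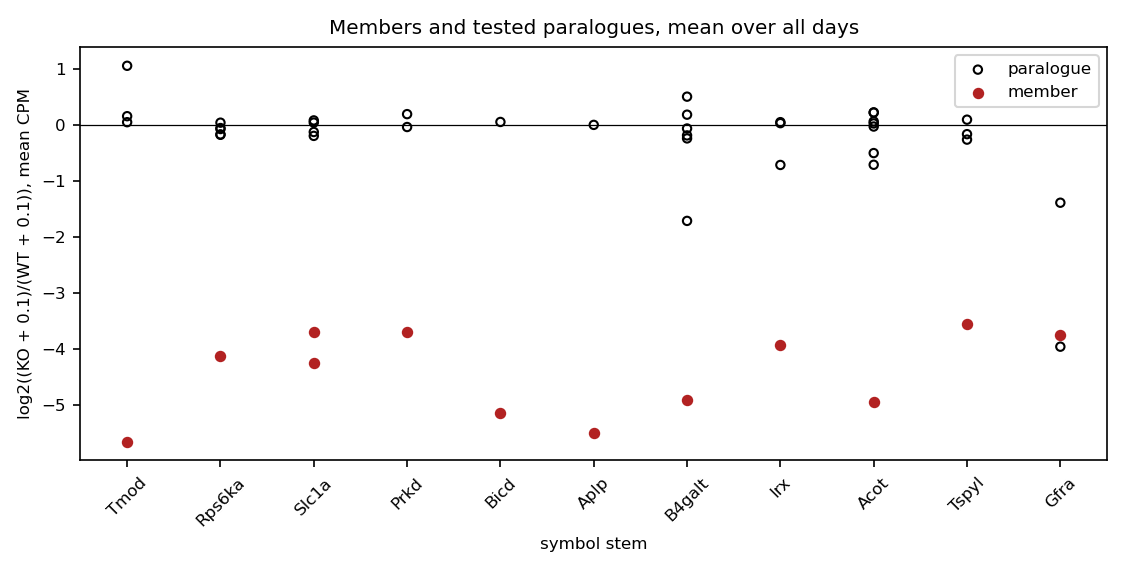
Each point is a gene, placed by symbol stem on the x axis, with the log2 ratio of its mean KO to mean WT CPM over all days (0.1 added to each) on the y axis, for members (red) and tested relatives (open circles) of 11 stems chosen for display. The members lie far below 0 by the rule, most of the relatives shown lie near 0, and Gfra1 is the furthest below 0 of those shown. The Arhgap and Klf stems, with the low relatives Arhgap24 and Klf15, are not shown, so the picture depends on the choice of stems.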

How the data were processed

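The authors deposited a table of raw read counts per gene for 12 libraries. Per the submitters' processing notes, STAR, featureCounts of Subread and edgeR were named with the build mm10, while the sources used here give neither the strand setting nor the gene annotation of the counting. All 12 columns were used and 0 were left out.

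Members were taken from the raw count sums. Both the members and the lists, functional groups and comparisons were chosen with earlier results of these data known. The count test was edgeR 4.0.16 (with limma 3.58.1, in R 4.3.3): filterByExpr (minimum count 10, minimum total 15, 13772 genes left, with all 76 members among them), TMM scaling, 1 coefficient per group and the two-sided quasi-likelihood F test, Benjamini-Hochberg adjusted over all genes tested, called below 0.05. The fit had 6 residual and 14.6 prior degrees of freedom. Each SE is the ratio of the log2 fold change to the root of the F statistic, and per-gene CPM use TMM-scaled totals. The scripts were tested on simulated data.

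By rule, full values were given for the 10 members with the highest mean WT CPM, for the 4 highest and 4 lowest called log2 fold changes in each WT comparison, and for the genes next to each threshold. Other members are named by function, and a few results are not reported here. Relatives were taken by shared symbol stem, leaving out stems that name no family.

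Alternatives were scaling by library totals, DESeq2 size factors, the DESeq2 1.42.0 Wald test, no filter on low counts, the replicate number as a block, a fit of the WT libraries only, leaving out each library, and other thresholds of the rule. The 2 libraries with the same replicate number did not deviate together: over 15 pairs of groups the correlation of deviations ran from -0.05 to 0.16. Gene positions and lengths come from GENCODE vM21 and promoters from RefSeq (GRCm38.p6), of which 60 of 76 members had one. Total counts of 8590132 to 15357433 per library leave a few reads for the weakest members at day 1, which limits their precision. Figures were drawn in Python 3.11.15 with matplotlib 3.10.9.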

Additional observations from a re-analysis of the deposited data

How the results depend on the processing

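With DESeq2's Wald test, 17 members were higher from day 1 to day 14, against 14% of all genes. Between days 14 and 28, 1 was higher and 5 were lower, against 15.2% and 13.2% of all genes. Between days 1 and 28, 20 were higher and 5 lower, against 19.4% and 16.6% of all genes. These are counts of members beside percentages of the genes that DESeq2 tested, which numbered 13132 to 14464 by comparison. How many members it tested is not given here, so the counts and percentages cannot be compared directly. Leaving out 1 library gave 19 to 22 higher and 2 to 3 lower from day 1 to day 14, 3 to 5 higher and 8 to 11 lower between days 14 and 28, and 20 to 26 higher and 8 to 12 lower between days 1 and 28. For the relatives it gave 46 to 48 higher and 38 to 43 lower in KO at day 1, 46 to 50 and 58 to 63 at day 14, and 43 to 54 and 55 to 69 at day 28, and with library totals the higher count at day 28 was 35. The number of members was 41 with a KO sum of 5 or less, 134 with 20 or less, 142 with a WT sum above 50 and 32 above 200, and 55 to 93 without 1 library. With the replicate number as a block, 31 members were higher and 3 lower from day 1 to day 14, 6 and 14 between days 14 and 28, and 30 and 13 between days 1 and 28; the labels do not say that these numbers pair the libraries. The fit of the 6 WT libraries alone gave 30 and 3, 6 and 14, and 31 and 13. Apart from DESeq2, the share of all genes called is not given for these settings. A changed count is therefore not read as particular to the members. Of 510 values of the members named by rule under an alternative, 474 kept their side of the threshold, 35 lost the call and 1 gained it. A change of direction with a call in either fit occurred in 0. Changes of direction between values that neither fit called were not counted. Of the calls, 16 of 34, 6 of 20 and 21 of 43 in the 3 comparisons were kept under every alternative. Depth limits the weakest members, whose day 1 libraries hold a few reads each.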
